A study of Mus musculus with 3 samples.

Results

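The 10 genes Acta2, Des, Lrat, Reln, Pdgfrb, Pdgfra, Dcn, Lum, Timp1 and Hgf, markers of hepatic stellate cells and of liver fibroblasts, were followed on 3 one-colour arrays of mouse liver. The genes were taken by name, and all of their non-control probes were used, which was 1 probe a gene. They were 10 of the 20284 genes named on the array, and 9 of them were well above background on all 3 arrays, out of 13626 such genes in all. Reln was the exception. The livers came from C57BL/6J mice that had received human YAP by hydrodynamic gene delivery, and RNA was taken at 2 days. YAP is the coactivator of transcription that the Hippo pathway restrains. One array held YAP (WT) liver, one YAP (1SA) liver and one YAP (2SA) liver, where 1SA and 2SA are mutants that the study describes as active forms.

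The model limits what these genes can show. The methods of the study place YAP behind an enhancer of alpha-fetoprotein and a promoter of albumin, which are used by hepatocytes, so stellate cells and fibroblasts were not meant to carry the transgene. The delivery reaches a part of the hepatocytes, it injures the liver in every group, and the mice were mainly young adult males. No array of a liver without injection was used here, so every comparison was with YAP (WT). Whether RNA of several animals was pooled on an array is not in the labels, and the title of the YAP (WT) sample carries the number 2. With 1 array a group no spread between animals could be had and no test was run. Repeated spots on an array gave the only error. In whole liver, fewer cells of a type and less RNA per cell cannot be told apart.

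Stellate cells lie between hepatocytes and the sinusoidal endothelium and store vitamin A as retinyl esters. After liver injury they lose these stores, take up a contractile actin cytoskeleton and secrete collagen and other matrix, driven by PDGF and TGF beta among other signals. Fibroblasts around the portal vein, smooth muscle of the vessels and the mesothelium of the capsule share many of the same genes, so a marker used here is rarely the mark of 1 cell type.

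Both mutants had lower levels of some of these genes than YAP (WT), with Acta2 lower in both beyond the spread between spots. In YAP (1SA) liver the contractile and injury genes Acta2 and Timp1 were more than 2-fold lower, and the other 7 measured genes lay within 0.27 log2 units of YAP (WT). In YAP (2SA) liver no gene was 2-fold lower, yet all 9 lay below YAP (WT), by 0.17 to 0.61 log2 units. Of these 9, only 5 lay below by more than 2 SD of a difference between spots of like signal. Levels are given as intensity, a linear brightness after background subtraction, and as normalised log2 values, the log2 intensity minus the log2 of the 75th percentile of the same array. That percentile was 290.8 on the YAP (WT) array, 275.7 on YAP (1SA) and 319.5 on YAP (2SA). A difference is that of normalised log2 values, so 1 unit is 2-fold.

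**Figure D1:**
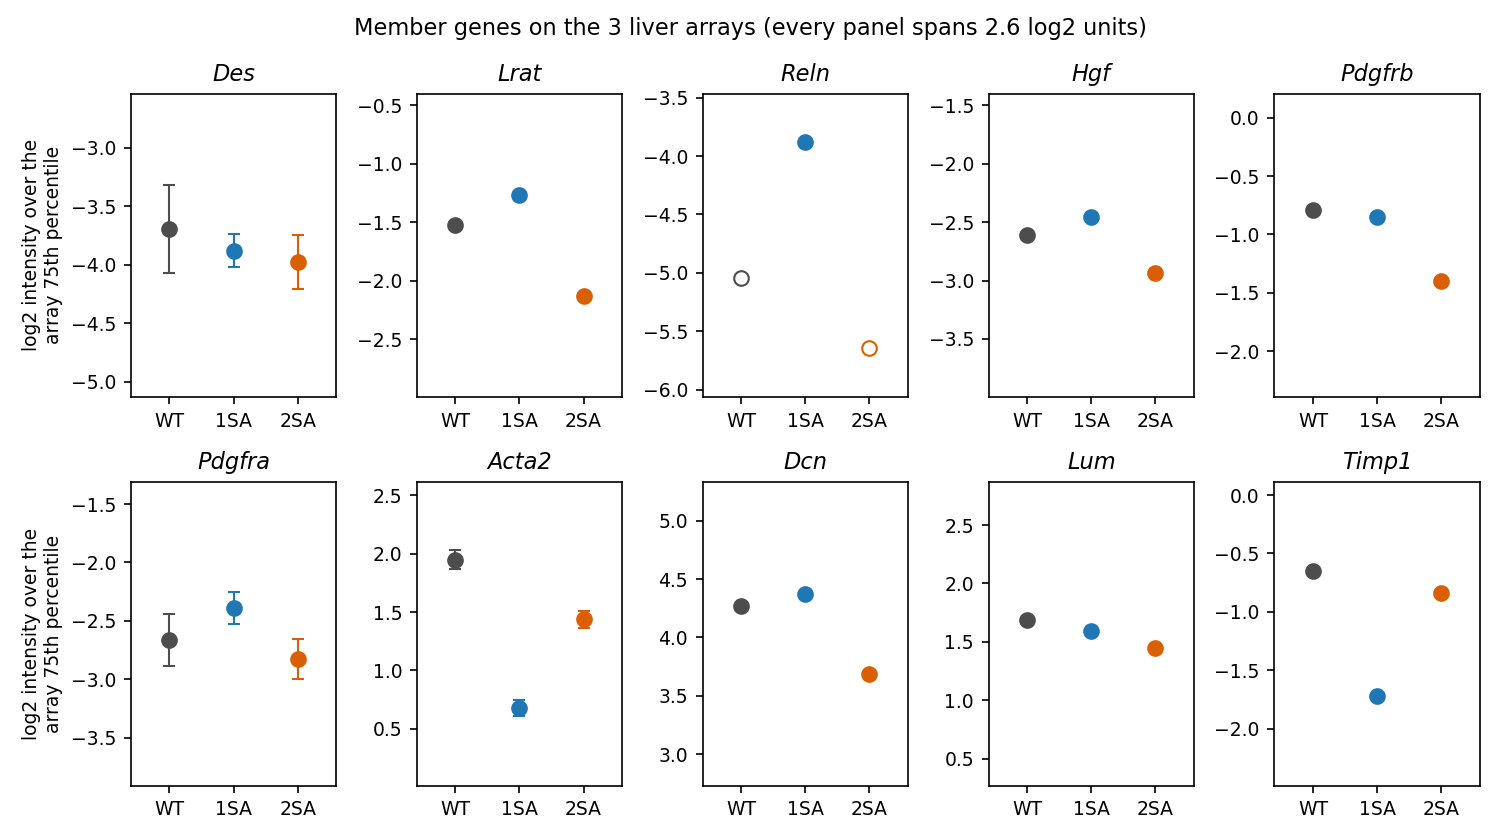
Normalised log2 intensity of each of the 10 genes (1 panel each) on the YAP (WT), YAP (1SA) and YAP (2SA) arrays, with open circles where the probe was not well above background and bars for the SD over the spots of the 3 probes printed 10 times. Acta2 and Timp1 were lowest on the 1SA array, and the other 7 measured genes were lowest on the 2SA array. For Des, Lum, Pdgfra and Hgf that lowest value was within 2 SD of a difference between spots from another array.

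Acta2 encodes smooth muscle alpha-actin, the actin of vascular smooth muscle and of stellate cells that have become contractile. Its probe (NM_007392) was printed in 10 spots on each array. The intensity was 1121 on the YAP (WT) array, with spots from 1011 to 1203. It was 441.7 on the YAP (1SA) array, with spots from 408 to 482, and 865 on the YAP (2SA) array, with spots from 817 to 944. Thus no spot of an array overlapped with those of another, and the order was YAP (WT), then YAP (2SA), then YAP (1SA). Acta2 differed from YAP (WT) by -1.27 ± 0.03 (SE over spots) in YAP (1SA), which is 2.41-fold lower, and by -0.51 ± 0.03 in YAP (2SA), which is 1.42-fold lower. Of the 13626 genes, 0.426% lay as low or lower in YAP (1SA) against YAP (WT). YAP (2SA) liver was 0.76 ± 0.03 above YAP (1SA) liver. Over all alternatives run, the first of these differences ranged from -1.31 to -1.18.

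**Figure D2:**
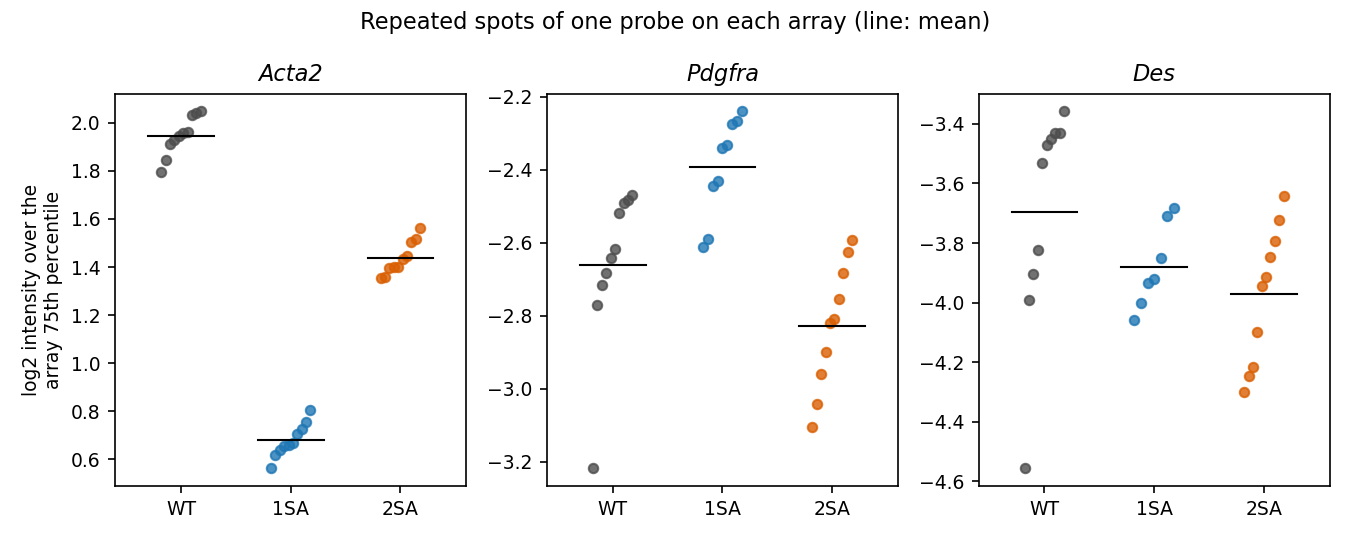
Normalised log2 intensity of single spots of the Acta2, Pdgfra and Des probes on each array, sorted by value within an array, with a line at the mean. The Acta2 spots of the 3 arrays are separate, whereas those of Des overlap throughout.

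Timp1 is an inhibitor of matrix metalloproteinases that activated stellate cells and macrophages secrete. Its probe (NM_001044384) had 1 spot, with an intensity of 185.0 on YAP (WT), 83.4 on YAP (1SA) and 178.4 on YAP (2SA). The YAP (1SA) value was thus less than those of both other arrays, which lay close together. The difference was -1.07 in YAP (1SA) against YAP (WT), or 2.10-fold lower, where the SD of a difference between spots of like signal was 0.13. With normexp background correction, a model of the background that draws dim spots together, it was -0.70, which is no longer 2-fold. YAP (2SA) differed from YAP (WT) by -0.19, within 2 such SD, and lay 0.88 above YAP (1SA).

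The bases upstream of Acta2 and Timp1, the pair of genes at least 2-fold lower in YAP (1SA), are shown with those of Lrat, the member furthest below YAP (1SA) in YAP (2SA) liver. They are the 250 bases before the start of each gene, from RefSeq on build GRCm38.p6, at chr19:34255374-34255623 on the minus strand for Acta2, chrX:20869916-20870165 on the plus strand for Timp1 and chr3:82903975-82904224 on the minus strand for Lrat. The probes themselves were designed on build mm9. Capitals mark the letters CATTCC or their reverse complement GGAATG, the core of the element bound by TEAD, the DNA-binding partner of YAP, and CArG-like boxes. A CArG box is the element bound by serum response factor in the promoters of contractile genes, and a CArG-like box has 1 letter of its A/T core changed to C or G.
Acta2: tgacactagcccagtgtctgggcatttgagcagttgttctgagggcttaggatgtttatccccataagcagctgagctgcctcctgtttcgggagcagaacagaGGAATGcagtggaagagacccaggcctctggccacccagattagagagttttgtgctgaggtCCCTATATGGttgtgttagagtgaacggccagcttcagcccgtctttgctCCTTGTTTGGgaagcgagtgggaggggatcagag
Timp1: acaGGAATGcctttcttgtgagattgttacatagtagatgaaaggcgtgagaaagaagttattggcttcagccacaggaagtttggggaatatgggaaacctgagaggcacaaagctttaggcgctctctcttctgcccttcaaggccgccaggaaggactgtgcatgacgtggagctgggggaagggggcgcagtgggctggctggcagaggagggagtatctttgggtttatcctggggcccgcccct
Lrat: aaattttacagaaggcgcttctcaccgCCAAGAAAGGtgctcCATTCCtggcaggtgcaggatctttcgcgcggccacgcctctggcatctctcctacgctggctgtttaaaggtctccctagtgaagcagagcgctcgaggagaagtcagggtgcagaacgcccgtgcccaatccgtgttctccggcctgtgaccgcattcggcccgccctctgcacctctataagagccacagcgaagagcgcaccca

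Acta2 has the letters GGAATG at 146 to 141 bases before its start and the CArG-like boxes CCCTATATGG at 84 to 75 and CCTTGTTTGG at 34 to 25. In Timp1 GGAATG stands at 247 to 242 bases before the start. Lrat has CATTCC at 208 to 203 and the CArG-like box CCAAGAAAGG at 223 to 214. Both strands were searched and none of these matches overlap. In all, promoter windows were used for 7 of the 10 genes, with 8 windows. CATTCC was in those of 3 genes, against 12.6% of all 32851 promoters of this length. The AP-1 letters TGANTCA, found in 6.75% of promoters, and the strict CArG box, found in 1.47%, were in none of the 8 windows, and the CArG-like box, found in 7.24% and searched after the strict search gave no match, was in those of 2 genes. These matches are descriptions of letters and not of binding.

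Acta2 and Timp1 were the only members counted as at least 2-fold lower in YAP (1SA) than in YAP (WT), 2 of 9, where 1.14% of all genes were. None of the 9 was 2-fold higher, against 0.727% of all genes. In this comparison 5 of 9 were lower by any amount, beside 50.3% of all genes, and the median over the 9 was -0.06. Against YAP (WT), YAP (2SA) liver had 0 of 9 at least 2-fold higher and 0 of 9 at least 2-fold lower, and the shares of all genes were 1.12% and 0.543%. Lower by any amount were 9 of 9, beside 56.4% of all genes, with a median of -0.33 where that of all genes was -0.03. Between the mutants 0 of 9 were 2-fold higher and 0 of 9 2-fold lower in YAP (2SA), against 2.47% and 1.12% of all genes. Here 7 of 9 were lower by any amount, beside 54.4%. The 3 comparisons share arrays and are not independent of each other.

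**Figure D3:**
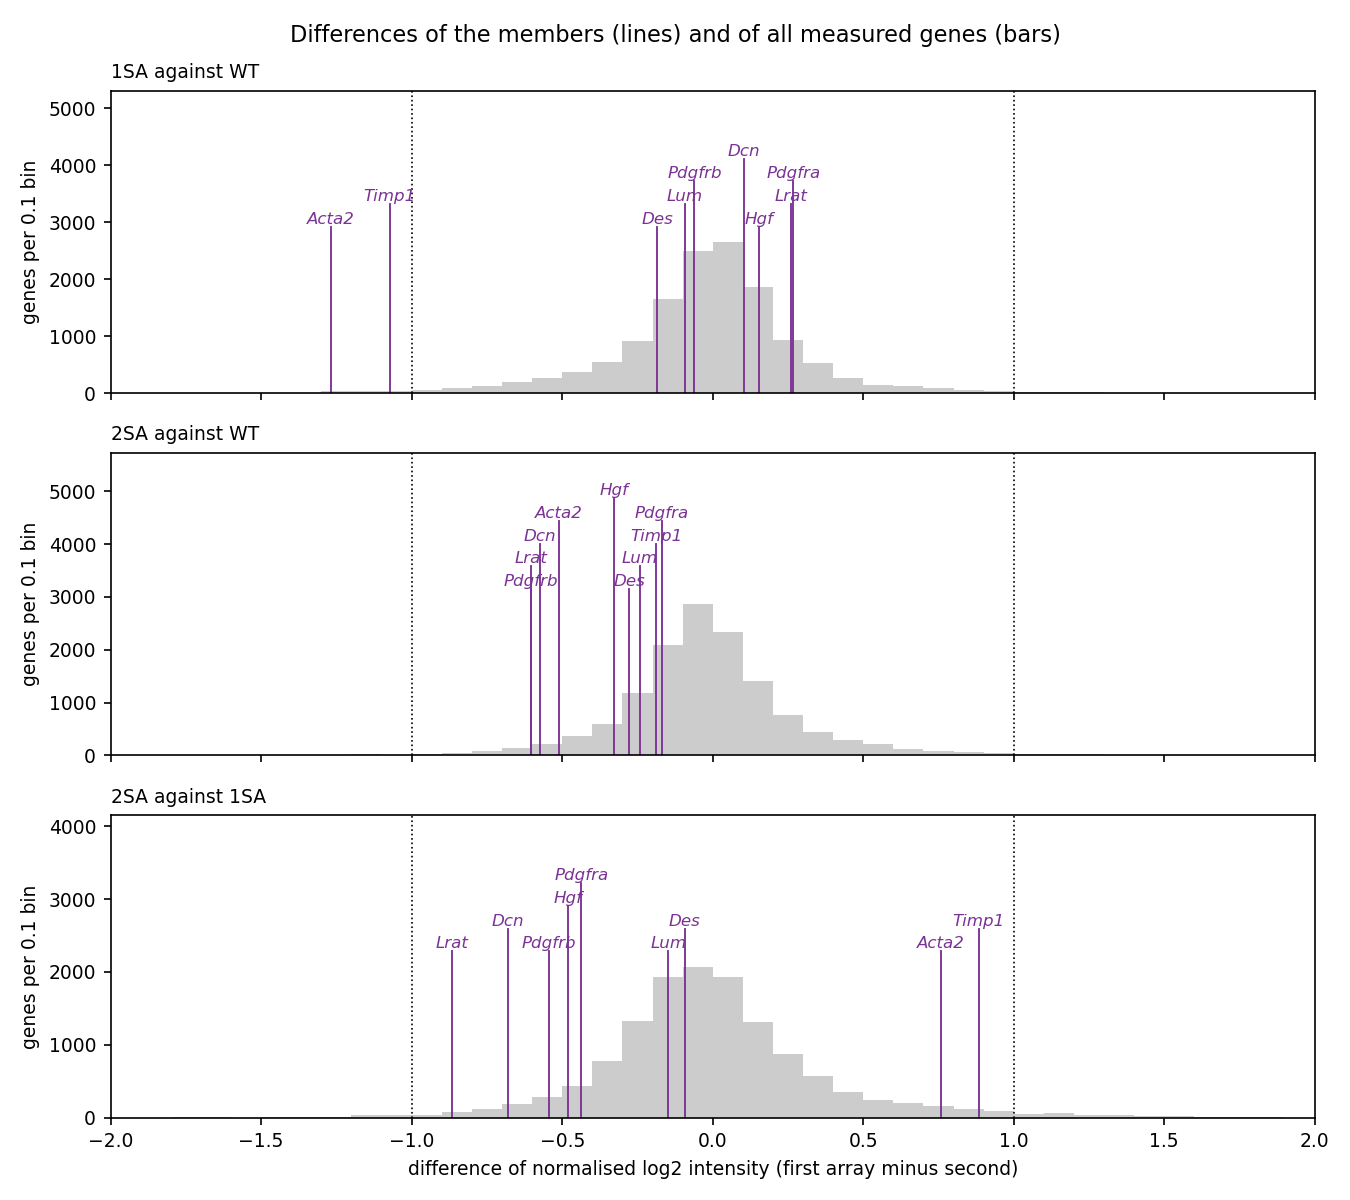
Differences of normalised log2 intensity of the 9 measured members (labelled lines, whose heights carry no value) and of all 13626 genes (bars, genes per bin of 0.1), for each pair of arrays, with dotted lines at 2-fold and genes beyond 2 log2 units off the axis. The members spread to both sides of 0 in YAP (1SA) against YAP (WT), apart from Acta2 and Timp1 at the low end, and all lay below 0 in YAP (2SA) against YAP (WT).

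The members were then ordered over the 3 arrays. YAP (2SA) held the lowest value of 7 of the 9 members, where it held the lowest of 42.1% of all genes. YAP (1SA) held the lowest value of the other 2, Acta2 and Timp1, beside 34.4% of all genes, and YAP (WT) of none, beside 23.6%. The highest value was on YAP (WT) for 5 members and on YAP (1SA) for 4, where these arrays held the highest value of 30.3% and 38.5% of all genes. It was on YAP (2SA) for none, beside 31.3%. Many of these places were within the error of the spots. The highest array lay above both others by more than 2 SD of a difference between spots of like signal for Acta2 alone. The lowest lay below both others by more than 2 SD for Acta2, Timp1, Lrat, Pdgfrb and Dcn, but not for Des, Lum, Pdgfra or Hgf.

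Lrat, lecithin retinol acyltransferase, makes the retinyl esters that quiescent stellate cells store. Its intensity (NM_023624) was 100.9 on YAP (WT), 114.7 on YAP (1SA) and 72.9 on YAP (2SA). It was lower on the YAP (2SA) array than on both others. The difference of YAP (2SA) was -0.60 from YAP (WT) and -0.87 from YAP (1SA), or 1.82-fold, with an SD between spots of 0.15 for each. YAP (1SA) lay 0.26 above YAP (WT), within 2 SD.

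Des encodes desmin, the intermediate filament of muscle that in rodent liver marks stellate cells. Its probe (NM_010043) was dim. The mean intensity was 22.5 on YAP (WT), 18.7 on YAP (1SA), where 3 of the 10 spots had been marked as outliers, and 20.4 on YAP (2SA). The spots ranged from 12.4 to 28.4 on YAP (WT), from 16.6 to 21.5 on YAP (1SA) and from 16.2 to 25.6 on YAP (2SA), so the arrays overlapped. Des differed from YAP (WT) by -0.18 ± 0.13 (SE over spots) in YAP (1SA) and by -0.28 ± 0.14 in YAP (2SA). Differences of this size could not be resolved at this signal.

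Reln encodes reelin, a secreted glycoprotein made by stellate cells and by lymphatic endothelium. Its single spot (NM_011261) had an intensity of 8.80 on YAP (WT), 18.7 on YAP (1SA) and 6.38 on YAP (2SA), and was well above background on YAP (1SA) alone. The YAP (1SA) signal was 1.58-fold, or 0.66 log2 units, above the lowest signal called well above background on the YAP (WT) array. That lay within 2 SD of a difference between spots of like signal, 1.15, so it is not a firm bound. The scanner's own error for this spot was 40.2% of its intensity on YAP (WT), 18.2% on YAP (1SA) and 44.5% on YAP (2SA), and no fold is given against YAP (2SA).

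Hgf encodes hepatocyte growth factor, the ligand through which stellate cells act on the receptor Met of hepatocytes. Its intensity (NM_010427) was 47.6 on YAP (WT), 50.2 on YAP (1SA) and 41.7 on YAP (2SA). The 3 values were near one another and in the order of Lrat. YAP (2SA) lay -0.33 from YAP (WT), within 2 SD of 0.21, and -0.48 from YAP (1SA), beyond 2 SD.

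The receptors for PDGF carry the main growth signal of these cells. Pdgfrb, the receptor of stellate cells and pericytes, had an intensity (NM_001146268) of 168.1 on YAP (WT), 152.8 on YAP (1SA) and 121.4 on YAP (2SA). YAP (WT) and YAP (1SA) differed by -0.06, within the spot error, while YAP (2SA) was 0.61 units below YAP (WT), or 1.52-fold, and 0.54 below YAP (1SA), where the SD between spots was 0.13. Pdgfra, the receptor found on fibroblasts and portal mesenchyme as well, had mean intensities (NM_011058) of 46.0 on YAP (WT), 52.5 on YAP (1SA) and 44.9 on YAP (2SA) over its repeated spots. Its spots ran from 31.3 to 52.5, from 45.1 to 58.3 and from 37.1 to 53.0, so all 3 arrays overlapped. Pdgfra differed from YAP (WT) by 0.27 ± 0.08 (SE over spots) in YAP (1SA) and by -0.17 ± 0.09 in YAP (2SA), and the mutants differed by -0.44 ± 0.07. Both differences from YAP (WT) were within 2 SD of a difference between spots of like signal, 0.44 and 0.43. That between the mutants was just beyond it, at 0.41.

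Dcn and Lum encode decorin and lumican, small leucine-rich proteoglycans that bind collagen fibrils, and are neighbouring genes on mouse chromosome 10. The intensity of Dcn (NM_007833) was 5596 on YAP (WT), 5705 on YAP (1SA) and 4127 on YAP (2SA). Only the YAP (2SA) array stood apart. The difference of YAP (2SA) was -0.57 from YAP (WT), or 1.49-fold, and -0.68 from YAP (1SA), where the SD between spots was 0.08 and 0.07. Lum (NM_008524) had an intensity of 938.1 on YAP (WT), 833.5 on YAP (1SA) and 871.7 on YAP (2SA). It varied least of all 9 measured members. Its differences from YAP (WT) were -0.09 in YAP (1SA) and -0.24 in YAP (2SA), the latter beyond 2 SD of 0.09, and the mutants differed by -0.15, within 2 SD. In YAP (2SA) both neighbours were lower, and Dcn by more than Lum.

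Further genes, of these cells, of other cells of the liver and of pathways or families, were taken from 19 lists, which leave out the members themselves. The list of quiescent stellate cells had 18 of 22 genes measured, and Gfap, one of its defining genes, was not well above background on any array. Its median was 0.41 in YAP (1SA) against YAP (WT), with 14 genes higher and 4 lower, and -0.53 in YAP (2SA) against YAP (WT), with all 18 lower. Between the mutants the median was -0.90, with 17 of 18 lower in YAP (2SA) and 8 of them at least 2-fold. The number past 2-fold was 3 with normexp background correction and 2 of the 8 genes left by a stricter filter on dim probes. The list's summed intensity, in units of the 75th percentile, was 76.5 on YAP (WT), 90.6 on YAP (1SA) and 51.9 on YAP (2SA).

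Among the genes of that list that differed most were Vipr1, Rgs5, Tcf21 and Lhx2. Vipr1, a receptor for vasoactive intestinal peptide, had an intensity of 845.2 on YAP (WT), 1297 on YAP (1SA) and 497.5 on YAP (2SA), and the mutants differed by -1.59. Its dimmer probe differed by only -0.26 between the mutants, and the mean of both probes by -0.93. Rgs5, a regulator of G protein signals in pericytes, had 154.6, 216.7 and 107.6 on the same arrays, a difference of -1.22 between the mutants. Tcf21 and Lhx2 are transcription factors of the stellate lineage. Both differed by -1.20, with Tcf21 at 75.7, 100.1 and 50.3 and Lhx2 at 79.5, 129.7 and 65.6. With normexp these differences were -0.62 for Tcf21 and -0.77 for Lhx2, short of 2-fold. Among the members, Lrat, Pdgfra, Dcn and Hgf had this same order of arrays, with YAP (1SA) highest and YAP (2SA) lowest. For each of these members YAP (1SA) lay within 2 SD of a difference between spots from YAP (WT). Which of those arrays was higher was thus not resolved.

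**Figure D4:**
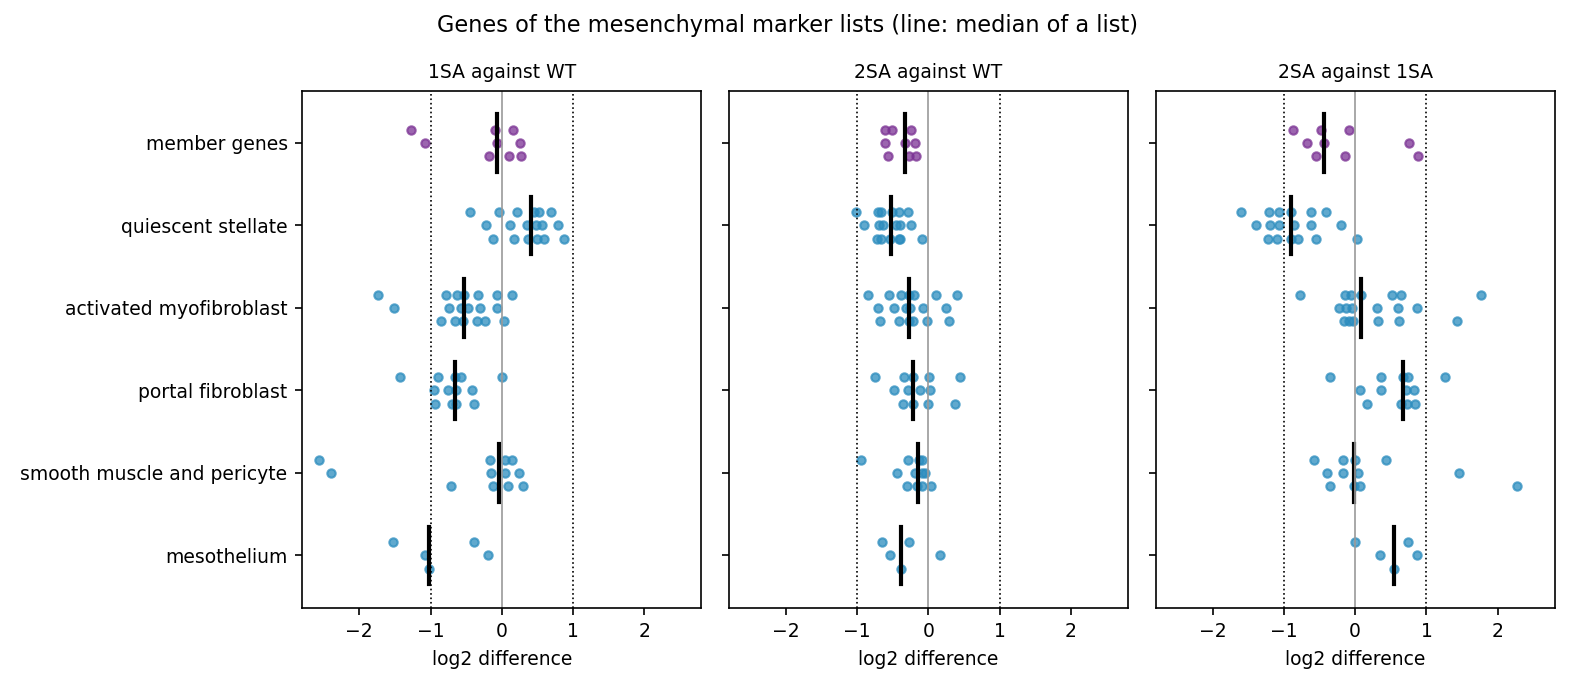
Log2 differences of single genes (points) of the members and of 5 further marker lists, with the median of each list as a line, for each pair of arrays and with dotted lines at 2-fold. The quiescent stellate genes had medians of 0.41, -0.53 and -0.90 in the 3 panels, and the myofibroblast and portal fibroblast genes lay mostly below 0 in YAP (1SA) against YAP (WT).

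The list of activated myofibroblasts, 19 of 22 genes measured, differed from it. In YAP (1SA) 17 of 19 were lower than in YAP (WT), with a median of -0.53 that was -0.28 with normexp. The calcium-binding protein S100a6 was among them with a difference of -1.52, from an intensity of 5458 on YAP (WT) to 1806 on YAP (1SA), and it stood at 7131 on YAP (2SA). Spp1, or osteopontin, a secreted protein that bile duct cells make as well, differed by -1.73 in YAP (1SA). In YAP (2SA) 15 of 19 were lower, with a median of -0.27 and none past 2-fold. The summed intensity of the list was 253.9 times the 75th percentile on YAP (WT), 209.7 on YAP (1SA) and 218.9 on YAP (2SA), and Lox, Cthrc1 and Thbs2 were not measured on all arrays.

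Portal fibroblast genes, 13 of 14 measured, were lower in YAP (1SA) in 12 cases, with a median of -0.65 that was -0.38 with normexp. Igfbp6, a binding protein of insulin-like growth factors, differed by -1.43. In YAP (2SA) their median was -0.21, and against YAP (1SA) 12 of 13 were higher, where Pi16, a marker of adventitial fibroblasts, differed by 1.27. With normexp 9 of 13 were higher in this last comparison and Pi16 differed by 0.34. Vessel wall genes were divided. Of 12 measured genes of smooth muscle and pericytes, 6 were higher and 6 lower in YAP (1SA), and 2 contractile genes stood far apart from the rest. Cnn1, or calponin, had an intensity of 76.0 on YAP (WT), 12.1 on YAP (1SA) and 68.1 on YAP (2SA), a difference of -2.57 in YAP (1SA). Its signal on YAP (1SA) was near the lowest called well above background on that array, 10.3, and with normexp the difference was -0.89. Actg2, the enteric smooth muscle actin, had 138.0, 24.9 and 78.8, a difference of -2.40 in YAP (1SA), or -1.24 with normexp, and of -0.94 in YAP (2SA). Acta2, Cnn1 and Actg2 therefore had the same order of arrays. Summed, the smooth muscle and pericyte genes stood at 78.0 times the 75th percentile on YAP (WT), 94.5 on YAP (1SA) and 75.1 on YAP (2SA). Mcam, an adhesion protein of vessels, carried 92.9% to 94.6% of these sums, and its brighter probe differed by 0.30 in YAP (1SA) and its dimmer one by -0.35. Without Mcam the sums were 5.54, 5.11 and 4.89. The portal fibroblast genes stood at 31.1, 23.2 and 35.8. Gas6 alone carried 60.8% of this sum on YAP (WT), 62.06% on YAP (1SA) and 71.9% on YAP (2SA). Without Gas6 the sums were 12.17, 8.82 and 10.06, so that YAP (2SA) lay below YAP (WT) and not above it. Myocd and Synpo2 of the smooth muscle and pericyte list and Gli1 of the portal fibroblast list were not measured on all arrays.

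Mesothelial genes were lower where Acta2 and Timp1 were. In YAP (1SA) all 5 measured of 8 were lower, with a median of -1.02, and Wt1, Msln and Pdpn were at least 2-fold lower, by 1.53, 1.08 and 1.02 log2 units. With normexp the median was -0.43 and none of the 5 was 2-fold lower. Upk3b, Upk1b and Lrrn4, which define this layer, were not measured on all arrays. The summed intensity of the measured genes was 321.3 times the 75th percentile on YAP (WT), 280.4 on YAP (1SA) and 358.1 on YAP (2SA), nearly all of it from the keratin Krt18, which hepatocytes express too. Without Krt18 the sums were 1.38, 0.679 and 0.987. The stricter filter left out Wt1, Msln and Pdpn as dim, and its value for this list in YAP (1SA), -0.19, was that of Krt18 alone. Bile duct genes, 10 of 10 measured, had a median of -0.51 in YAP (1SA) and of 0.01 in YAP (2SA). The former was -0.15 with normexp and -0.84 with the stricter filter, which left only Spp1 and Pkhd1 of this list. The list held Tspan8 with -1.04 in YAP (1SA), or -0.48 with normexp, besides Spp1. Its sums were 15.5, 6.59 and 13.6 on YAP (WT), YAP (1SA) and YAP (2SA), and without Spp1 they were 3.36, 2.93 and 3.78. The part of these cell types in the results for Acta2 and Timp1 was not tested.

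Hepatocyte and sinusoidal endothelial genes differed less than Kupffer cell genes. Hepatocyte genes, 13 measured of 14, had medians of 0.08 in YAP (1SA) and -0.16 in YAP (2SA) against YAP (WT), with the first at -0.03 under quantile normalisation, and summed to 6457, 6714 and 5704 times the 75th percentile. Sinusoidal endothelial genes, 12 of 12 measured, had medians of -0.07 and -0.11 and sums of 100.2, 104.8 and 85.7, and no gene of either list was 2-fold apart in any comparison. Kupffer cell genes, 11 of 12 measured, had medians of -0.42 and -0.50, the latter -0.33 with the stricter filter, and sums of 298.8, 222.9 and 196.2. There the lectin Clec4f was lower in YAP (2SA) by 1.56 log2 units, and the scavenger receptor Marco was lower in both mutants, by 1.21 and 1.59. Genes of recruited myeloid cells, 8 of 12 measured, had medians of -0.15 and 0.50, the latter 0.31 with normexp. The part of these cells in the results for the members, of which Timp1 and Hgf are also made by macrophages, was not tested.

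The partners of the members in their pathways came next. Of 11 measured genes of the PDGF pathway none was 2-fold apart in any comparison, and the medians were 0.07 in YAP (1SA) and 0.02 in YAP (2SA) against YAP (WT). All 13 genes of the HGF pathway were measured, with medians of 0.03 and -0.01. Plau, or urokinase, which can activate the growth factor, differed by 1.24 in YAP (2SA), with an intensity of 34.2 on YAP (WT), 25.9 on YAP (1SA) and 89.0 on YAP (2SA). Serpina5, an inhibitor of such proteases, differed by 1.32. With normexp the differences were 0.65 for Plau and 0.95 for Serpina5, both short of 2-fold, and the stricter filter left out both genes as dim.

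Metalloproteinases and their inhibitors had the direction of Timp1 in part. Of 14 measured genes 10 were lower in YAP (1SA) than in YAP (WT), with a median of -0.31, and 3 were at least 2-fold lower. They were the collagenase Mmp13, with intensities of 147.1, 52.1 and 183.5 on YAP (WT), YAP (1SA) and YAP (2SA) and a difference of -1.42, the macrophage elastase Mmp12 with -1.11, and Cd63, a surface partner of Timp1, with -1.02. With normexp Mmp13 differed by -0.82 and Mmp12 by -0.62. In YAP (2SA) none of the 14 was 2-fold from YAP (WT). The gene most different among 7 measured small leucine-rich proteoglycans was Ogn, or osteoglycin. Its intensity was 122.0 on YAP (WT), 69.0 on YAP (1SA) and 317.0 on YAP (2SA), so that in YAP (2SA) it lay 1.24 above YAP (WT) while Dcn and Lum lay below, and 0.98 above it with normexp. The list had medians of -0.19 and 0.15.

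Retinoid genes had the direction of Lrat only in part. The 16 measured had medians of 0.14 in YAP (1SA) and 0.00 in YAP (2SA) against YAP (WT), with 11 and 8 of them higher. Between the mutants 10 were lower in YAP (2SA), with a median of -0.15 that was 0.00 under quantile normalisation. Rdh11, a retinal reductase, was 1.28 higher in YAP (1SA) than in YAP (WT), and Cyp26b1, which degrades retinoic acid, was 1.35 higher in YAP (2SA) than in YAP (1SA). In the TGF beta axis, 19 of 20 measured, the medians were -0.03 and -0.21, the latter -0.01 with the stricter filter. Ccn2, a matricellular protein that both YAP and TGF beta induce, was the only gene of this axis past 2-fold and differed by -0.44 in YAP (1SA) and by 2.15 in YAP (2SA). By real-time PCR the study reports a rise of this gene, there named ctgf, with each active mutant but not with YAP (WT). That rise was over the first 2 days after injection, which include the time of these arrays. The YAP (2SA) array had such a rise over YAP (WT), and the YAP (1SA) array did not. The reason for this was not tested. Partners of actin and desmin, 9 of 10 measured, had medians of -0.05 and 0.00, and Cryab, the chaperone of desmin, differed by 1.49 in YAP (2SA) while Des did not differ beyond its spots. The 5 measured genes of the reelin pathway had medians of -0.08 and -0.03, with none past 2-fold.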

How the data were processed

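Total RNA of whole liver was labelled with Cy3 and hybridised to 3 one-colour Agilent arrays, all on 1 slide. The authors scanned them with Agilent Feature Extraction 10.10.1.1, per the file headers, and deposited for each spot an intensity, its brightness with background removed, which is not scaled between arrays. The deposited series matrix holds the same intensity times 1 constant an array and served as an alternative.

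Control spots and spots marked as outliers were left out (148 to 182 an array). Saturation occurred in none. Each probe was given the mean log2 intensity of its spots, less the log2 of the 75th percentile on that array. A probe was measured where at least 50% of its spots were well above background, which held for 28972 to 30784 of 55681 probes an array. RefSeq accessions gave 26762 probes a gene name through a GRCm38.p6 gene table. A gene stood for its brightest probe measured on all 3 arrays. The SD of a difference came from 282 probes with repeated spots, taken within 1 log2 unit of the probe's signal, and the number of arrays limits the precision.

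The members and the 19 further lists (quiescent stellate cell, activated myofibroblast, portal fibroblast, smooth muscle and pericyte, mesothelium, bile duct, hepatocyte, sinusoidal endothelium, Kupffer cell, recruited myeloid cell, cell cycle, PDGF, HGF, TGF beta and reelin pathways, metalloproteinases, proteoglycans, retinoid genes, filament partners) were chosen with earlier results of these data known. All members were named, and of each list at most 5 genes, those at least 2-fold apart in a comparison, largest difference first, and 1 gene that this rule would name is not reported here. The calculation was tested on simulated data. Python 3.11.15 with pandas 2.3.3 and numpy 2.4.6, R 4.3.3 with limma 3.58.1 for normexp (offset 50), and matplotlib 3.10.9 were used.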

Additional observations from a re-analysis of the deposited data

Results flagged for a closer look

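The quiescent stellate cell genes lay on opposite sides of YAP (WT) in the mutants, with a list median of 0.41 in YAP (1SA) and -0.53 in YAP (2SA). Between the mutants the median was -0.90, and -0.62 with normexp. Each mutant had 1 array, the comparisons share the YAP (WT) array, and the difference was not tested between animals.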

How the results depend on the processing

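Tried in turn were quantile normalisation, scaling by the median of an array, normexp, the series matrix values, no filter and a stricter filter on dim probes, the mean of all probes of a gene, outlier spots kept, saturated spots left out and a 3-fold threshold. Of 225 values of single members, 218 kept their sign and lay within the spread between spots of the main value, 7 moved by more and none changed sign. Many of these values could not move. No spot was saturated, each member had 1 probe, and the filter settings left the values of the members they kept as they were. The count of members at least 2-fold lower in YAP (1SA) than in YAP (WT) was 1 under normexp, 1 of the 3 members left under the stricter filter and 0 at 3-fold. Without a filter 1 member was 2-fold higher in YAP (1SA) than in YAP (WT) and 1 was 2-fold lower in YAP (2SA) than in YAP (1SA), and both were Reln. The stricter filter gave a median of -0.51 for YAP (2SA) against YAP (WT) and of -0.15 for YAP (2SA) against YAP (1SA), which was -0.27 under normexp. The median of YAP (1SA) against YAP (WT) was 0.02 without a filter. No scaling moved the median of all genes by more than 0.08 log2 units. Without a filter the genes at least 2-fold higher and lower in YAP (1SA) were 553 and 788, against 99 and 155, in YAP (2SA) 584 and 723 against 153 and 74, and between the mutants 839 and 685 against 337 and 153. With 1 array a group no array could be left out and a block for the slide was not possible. No paired analysis was possible because there was a single array of each liver type. Des, Hgf and Pdgfra were dim, and spot error limits what their values can show.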

Other observations

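Cell cycle genes, 11 of 12 measured, were higher in both mutants than in YAP (WT), with medians of 0.78 in YAP (1SA) and 0.84 in YAP (2SA), and all 11 were higher in each. Top2a, the topoisomerase of dividing cells, had an intensity of 115.6 on YAP (WT), 179.1 on YAP (1SA) and 273.7 on YAP (2SA). Bub1, a kinase of the spindle checkpoint, had 33.2, 64.1 and 67.1. With normexp the medians were 0.60 and 0.56. These genes do not tell which cells were dividing.

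Among the genes of recruited myeloid cells, Ccr2, the chemokine receptor of monocytes, was 2.33 log2 units higher in YAP (1SA) than in YAP (WT). The macrophage protein Chil3 differed the other way, by -1.13 in YAP (1SA), or -0.89 with normexp, and 1.24 in YAP (2SA), and the lysozyme gene Lyz2 was 1.20 higher in YAP (2SA) than in YAP (1SA). Ly6c2 and Ly6g had no probe matched by accession, and Cxcr2 and Mpo were not measured on all arrays.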
